A study of Arabidopsis thaliana with 6 samples.

Results

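DME and 5 genes that maintain or direct DNA methylation, MET1, VIM1, DDM1, CMT3 and AGO4, were followed in RNA of whole seedlings of Arabidopsis thaliana (Ler accession), taken 7 days after germination. They were chosen by name from genes already known to be listed, that is, on their fold change and adjusted p, and make up 6 of the 5322 rows of the authors' deposited table, which compares dme seedlings (labelled dme/-, 3 libraries) with wild type seedlings (WT, 3 libraries), both grown on MS plates. The sources used here do not name the dme allele or say how mutant seedlings were obtained. For each gene that table gives the mean of its normalized counts in all libraries, a log2 fold change (read as dme over WT) and an adjusted p. It holds only genes that changed at least 2-fold with an adjusted p under 0.05, and it has 0 columns of values per library. The spread between libraries, the depth of each library and any overlap of the genotypes therefore cannot be shown, and nothing in the labels says that the libraries came from separate cultures, so an adjusted p measures only the spread between them, which may be technical.

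In plants, cytosines are methylated in the CG, CHG and CHH contexts by different enzymes, and the pattern is copied at each round of DNA replication. MET1 methylates the new strand at CG sites after VIM proteins have bound the half-methylated DNA, DDM1 opens nucleosomes so that methyltransferases can reach heterochromatin, CMT3 methylates CHG sites on nucleosomes that carry methylated histone H3 lysine 9, and AGO4 carries small RNAs to their target loci in RNA-directed DNA methylation. DME works against these enzymes: it is a DNA glycosylase that cuts 5-methylcytosine out of DNA, and it is best known for its action in the central cell of the ovule, where it sets up imprinting in the endosperm.

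The transcript sequences show how far reads of these genes can be told apart from those of their relatives, which matters because the sources used here do not say how the authors counted reads or used strand. In the Col-0 reference annotation of RefSeq (assembly TAIR10.1), none of the 6 genes overlapped another annotated gene, and 0 windows of 50 bases of their longest transcripts occurred in the exons of any other gene of the nuclear chromosomes. The longest exact stretch that MET1 shares with another gene is 48 bases of coding sequence held in common with MET2, and that of VIM1 is 47 coding bases held in common with VIM5, a neighbour that went the other way in dme. DME shares at most 22 coding bases, with its relative DML3. AGO4 shares at most 26 coding bases, with AGO6, DDM1 at most 22, outside its coding sequence, and CMT3 at most 19. The stretches of MET1 and VIM1 are shown because they are the longest of the 6, and that of DME because it is the mutated gene. The MET1 and VIM1 stretches each cross an exon junction, so that the range given for them, chr5:19937860-19938060 on the plus strand and chr1:21416139-21416414 on the minus strand, includes an intron, and the DME stretch lies at chr5:1315767-1315788 on the plus strand.
MET1: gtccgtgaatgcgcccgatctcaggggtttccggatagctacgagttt
VIM1: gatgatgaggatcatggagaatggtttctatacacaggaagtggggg
DME: aattgtaatgcatgtccaatga
The seedlings were of the Ler accession, whose sequence may differ from these reference letters.

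The mutated gene itself was lower, and its transcript was still counted. DME (AT5G04560, chr5:1309099-1318520, plus strand, 20 exons) is given a log2 fold change of -1.55 and an adjusted p of 4.88e-17 by the authors' deposited table, where 27.2% of the measurements were lower. The mean and the fold of the authors' deposited table imply a mean normalized count of 1107 in dme, against 3249 in WT, so that 0.341 of the WT level was left. The table does not say from which part of the gene these reads came. Among the 1389 lower genes with reads in both genotypes, 37.8% had a larger fall and 38.5% a smaller adjusted p than DME. Its position in the middle of the lower genes, and far to the right among all listed genes, can be seen in the scatter of all listed genes: 12.8% of the listed measurements had a larger mean.

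The 5 other genes were all higher in dme. The table was 72.8% higher genes (3867 of 5311 measurements after repeated rows were counted once), and the members were chosen with their directions known, so this count of 5 of 6 higher is a description from which nothing is read. In whole seedlings, more cells of a type and more RNA per cell cannot be told apart. As no value per library was used here, the error given for each gene is the largest standard error that its adjusted p allows, which holds if the authors' p came from a Wald test.

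CMT3 and VIM1 had the larger changes. CMT3 (AT1G69770, chr1:26248118-26253687, minus strand, 21 exons), the CHG methyltransferase, changed by 2.04 in log2 terms with a standard error of at most 0.222, and the authors' deposited table gives it an adjusted p of 4.06e-20. Its means implied by the authors' deposited table were 986 normalized counts in dme and 239.9 in WT, a 4.11-fold difference. CMT3 was the only member past 4-fold, a size that 38.3% of all listed measurements passed as higher genes. VIM1 (AT1G57820, chr1:21413981-21418115, minus strand, 10 exons), a RING finger protein that binds half-methylated CG sites, changed by 1.82 in log2 terms with a standard error of at most 0.208, again with an adjusted p from the authors' deposited table, 2.68e-18. The authors' deposited table implies 728 normalized counts of VIM1 in dme and 206.5 in WT, a 3.53-fold difference. Both stood near the median of the higher genes with reads in both genotypes, which the authors' deposited table puts at a log2 value of 1.98: 48.0% of those 3632 genes had a larger rise than CMT3 and 56.3% a larger one than VIM1.

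MET1, AGO4 and DDM1 rose by little more than the 2-fold that the table requires. MET1 (AT5G49160, chr5:19932114-19938470, plus strand, 13 exons), the main CG methyltransferase, changed by a log2 value of 1.04 (the authors' deposited table, adjusted p = 1.52e-11), with a standard error of at most 0.154. From the authors' deposited table, MET1 had an implied mean of 1330 normalized counts in dme and 646 in WT. AGO4 (AT2G27040, chr2:11536502-11542391, minus strand, 23 exons), the small RNA carrier, changed by a log2 value of 1.103 (the authors' deposited table, adjusted p = 3.60e-20), with a standard error of at most 0.120. Its implied means were 1984 normalized counts in dme and 924 in WT, by the authors' deposited table. DDM1 (AT5G66750, chr5:26648897-26653191, plus strand, 16 exons), the nucleosome remodeller, changed by a log2 value of 1.12 (the authors' deposited table, adjusted p = 0.000217) and was the least certain of the 6, with a standard error of at most 0.304. Its implied means, by the authors' deposited table, were 283 normalized counts in dme and 130.1 in WT.
These 3 rises were small for this table: 97.3% of the higher genes with reads in both genotypes had a larger one than MET1, 93.8% than AGO4 and 92.5% than DDM1. Size and certainty went apart, since only 31.6% of those genes had a smaller adjusted p than AGO4, against 48.3% for MET1 and 77.6% for DDM1. The members just inside the threshold are thus MET1 at 1.04 and AGO4 at 1.103 in the authors' deposited table, and genes just outside it have no value there.

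**Figure D1:**
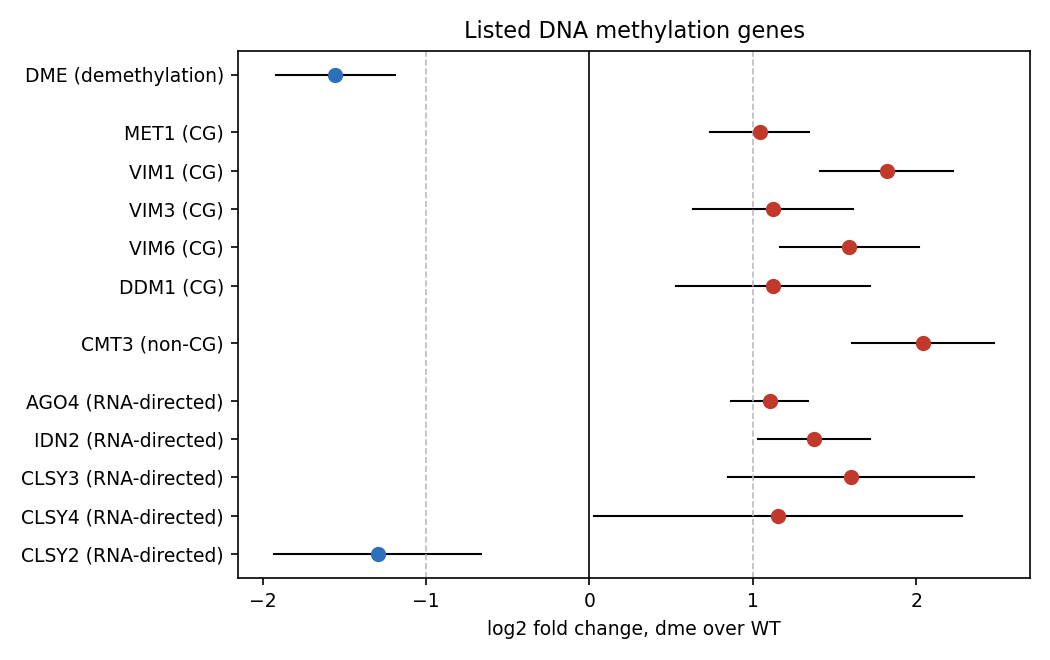
Log2 fold change (dme over WT, x axis) of each listed gene of the DNA methylation lists with reads in both genotypes, from the authors' deposited table; points are red where higher and blue where lower in dme, lines span the 95% interval that follows from the largest standard error its adjusted p allows, and dashed lines mark the 2-fold limit of the table. CMT3 stands farthest to the right at 2.04, DME and CLSY2 lie left of 0 at -1.55 and -1.29, and the interval of CLSY4 reaches down to 0.026.

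**Figure D2:**
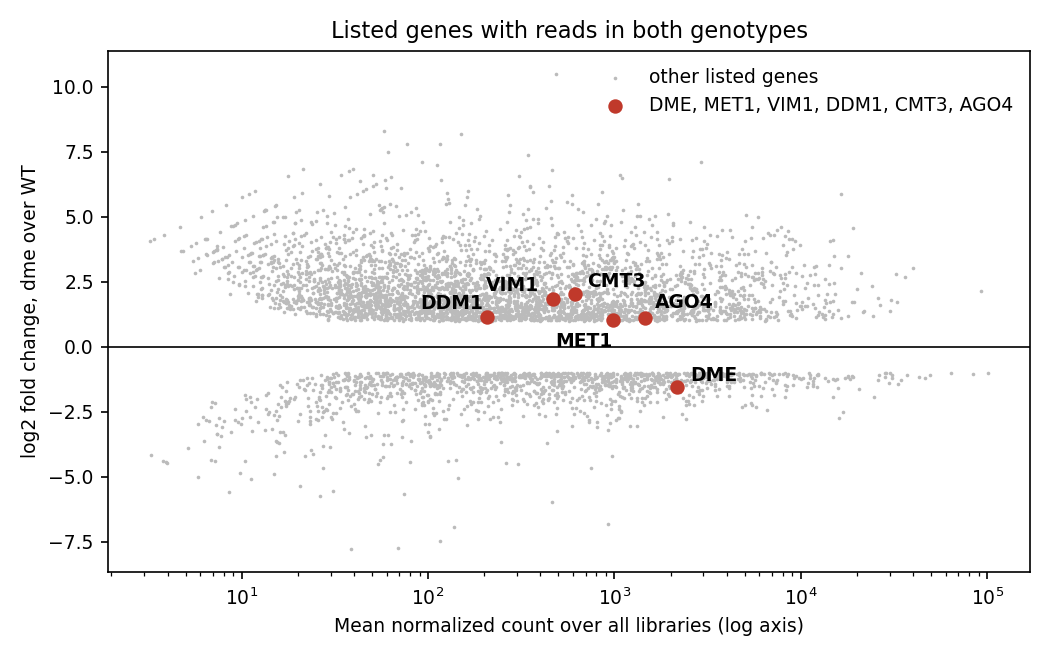
Log2 fold change (dme over WT, y axis) against the mean of the normalized counts (x axis, log scale) for every listed gene with reads in both genotypes, from the authors' deposited table, with the 6 genes in red. The empty band around 0 is the 2-fold limit of the table, and MET1, AGO4 and DDM1 lie at its upper edge at 1.04, 1.103 and 1.12.

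Levels were compared between genes per length, as the implied mean normalized count per kb of the longest annotated transcript. In dme seedlings AGO4 was highest with 613 per kb, followed by CMT3 with 321, VIM1 with 299, MET1 with 263, DME with 159 and DDM1 with 102. In WT seedlings the order by the same measure was DME with 467 per kb, AGO4 with 285, MET1 with 127.7, VIM1 with 84.9, CMT3 with 78.2 and DDM1 with 47.0. DME thus stood above all 5 others in WT and above DDM1 alone in dme, and CMT3 stood below VIM1 and MET1 in WT and above both in dme. Whether neighbours in these orders differ beyond their spread cannot be told, because the table gives no error for a level.

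**Figure D3:**
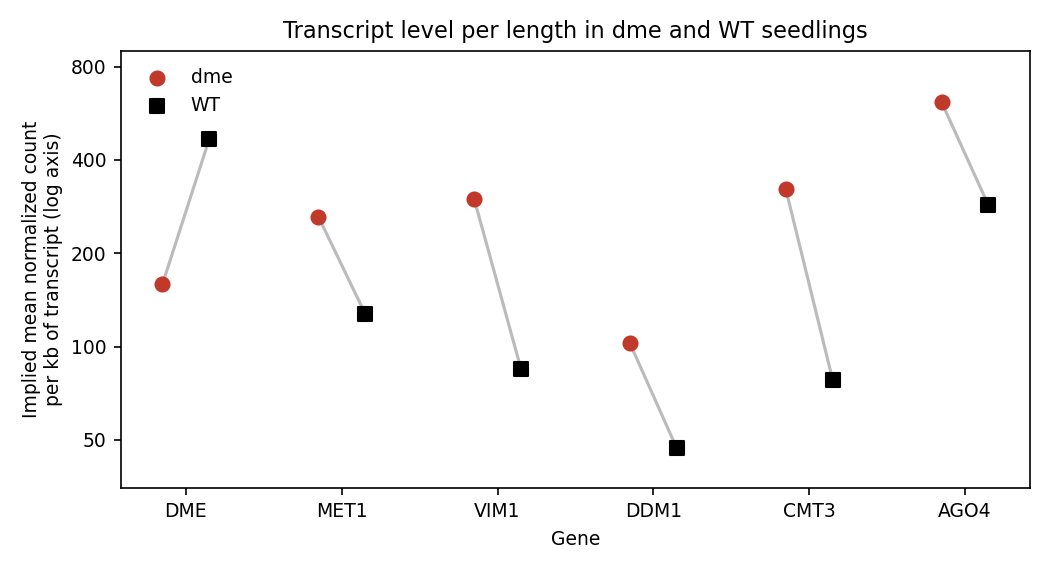
Implied mean normalized count per kb of the longest transcript (y axis, log scale) for each of the 6 genes, with dme seedlings as red circles and WT seedlings as black squares, computed from the mean and fold of the authors' deposited table, with no error available. The line falls toward WT in MET1, VIM1, DDM1, CMT3 and AGO4 and climbs toward WT, to 467 per kb, in DME.

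The closest relatives of VIM1 were listed in both directions. In the authors' deposited table VIM3 rose by a log2 value of 1.12 (adjusted p = 7.40e-06) and VIM6, also called ORTHRUS-LIKE, by one of 1.59 (adjusted p = 2.38e-13). Their means implied by the authors' deposited table were 361 normalized counts in dme and 166.0 in WT for VIM3, and 263 in dme and 87.2 in WT for VIM6. VIM5, which lies beside VIM1 on chromosome 1 with a single pseudogene between them, was lower (adjusted p = 8.75e-06 in the authors' deposited table). Its fold there is a fixed function of its mean, as when dme has no reads, so no fold is given; its mean normalized count was 11.5 in the authors' deposited table, which implies 23.0 in WT. VIM2 and VIM4 were not listed, and 70.7% and 77.1% of the 50-base windows of their transcripts occur in another gene, mostly in each other, against 16.3% for VIM3, 3.58% for VIM6 and 0.242% for VIM5. Reads of VIM2 and VIM4 may thus be shared between them, and a change in either could be missed or split.
The bases before the start of VIM1 and VIM5 are shown because these adjacent relatives, both on the minus strand, had opposite entries. They are the 250 bases before the annotated gene start in the RefSeq annotation of TAIR10.1, at chr1:21418116-21418365 for VIM1 and chr1:21412284-21412533 for VIM5, both read on the minus strand.
VIM1: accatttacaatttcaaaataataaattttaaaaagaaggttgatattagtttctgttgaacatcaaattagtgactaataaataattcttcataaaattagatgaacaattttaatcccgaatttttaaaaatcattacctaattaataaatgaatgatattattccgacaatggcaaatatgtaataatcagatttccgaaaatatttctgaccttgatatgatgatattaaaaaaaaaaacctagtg
VIM5: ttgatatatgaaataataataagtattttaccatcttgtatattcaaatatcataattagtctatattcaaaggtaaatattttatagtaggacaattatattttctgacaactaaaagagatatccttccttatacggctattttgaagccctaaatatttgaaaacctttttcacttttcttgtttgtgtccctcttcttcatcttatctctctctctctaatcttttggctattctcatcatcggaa
Bases G and C make up 22.0% of the VIM1 stretch and 27.6% of the VIM5 stretch, and neither holds a match to either motif described next.

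The start regions of the 6 genes were searched for a pair of motifs known from genes of dividing plant cells. E2F sites were taken as TTTCCCGC, TTTGGCGC, TTTCGCGC or TTTGCCGC, and site II elements, which TCP factors bind, as TGGGCC or TGGGCT, each on both strands of the 250 bases before the gene start. No E2F word was found in the 6 windows, which says only that these letters are absent there; 1.41% of the 27443 protein-coding genes with such a window held one. Site II words were found before DME and CMT3, against 19.2% of all windows, and on both strands before each of them, against 7.10% of all windows. These windows are printed because DME, which fell, and CMT3, which rose, both hold the same inverted pair of words, in capitals. The DME window is chr5:1308849-1309098 on the plus strand, and the CMT3 window chr1:26253688-26253937 on the minus strand.
DME: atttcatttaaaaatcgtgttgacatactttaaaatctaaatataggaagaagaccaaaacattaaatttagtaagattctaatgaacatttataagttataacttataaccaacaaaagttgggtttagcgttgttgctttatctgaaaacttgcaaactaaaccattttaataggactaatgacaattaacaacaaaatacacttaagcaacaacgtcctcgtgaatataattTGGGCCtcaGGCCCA
CMT3: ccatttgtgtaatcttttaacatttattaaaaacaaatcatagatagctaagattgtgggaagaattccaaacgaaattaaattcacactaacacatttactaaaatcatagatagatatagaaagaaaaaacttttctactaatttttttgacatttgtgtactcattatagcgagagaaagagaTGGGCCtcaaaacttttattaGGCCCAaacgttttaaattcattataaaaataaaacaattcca
In DME the pair ends at the base before the gene start and begins 15 bases before it. In CMT3 it runs from 64 to 38 bases before the start.

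The rest of the DNA methylation machinery was mostly not listed, as held for annotated protein-coding genes as a whole. Of 65 genes on 4 lists of demethylation, CG maintenance, non-CG maintenance and RNA-directed DNA methylation, 13 were listed (20.0%), against 18.6% of all 27444 annotated protein-coding genes, some of which may not have been tested. Listed as higher were 10 (15.4%), against 13.7% of all, and as lower 3 (4.62%), against 4.86% of all. These counts include the 6 members, which were chosen because they were listed. Of the 59 other genes on the lists, 7 were listed (11.9%), 5 as higher (8.47%) and 2 as lower (3.39%). The median log2 fold change of the listed list members with reads in both genotypes was 1.14 in the authors' deposited table, and 1.26 without the 6 members. Every listed gene is at least 2-fold changed by the limit of the table, so these medians describe the listed genes only and nothing is read from them.

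Of 17 demethylation genes, DME was the single entry (5.88% listed, against 18.6% of all annotated protein-coding genes), and it was chosen because it was listed. ROS1, DML2 and DML3, the other glycosylases of its family, were not listed, nor were ZDP, APE1L and LIG1, which finish the repair after the base is cut out, nor IDM1, IDM2 and IDM3, which guide ROS1 to its targets. Of 12 genes of CG maintenance, 5 were higher (41.7%, against 13.7% of all annotated protein-coding genes) and 1 lower: MET1, DDM1 and VIM1, VIM3 and VIM6 on one side and VIM5 on the other. Without the members MET1, VIM1 and DDM1, 2 of the 9 remaining genes were higher (22.2%) and 1 lower. The MET1 relatives MET2, MET2b and MEE57 were not listed, nor was HDA6, a histone deacetylase. Of 10 genes of non-CG maintenance, CMT3 was the 1 entry (10.0% listed, against 18.6% of all), and it was chosen because it was listed. CMT2 was not listed, nor were the histone methyltransferases SUVH4, SUVH5 and SUVH6, whose mark CMT3 binds, nor IBM1, which removes that mark from genes. Unlisted genes have no value, so whether these enzymes changed by less than 2-fold cannot be seen.

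In RNA-directed DNA methylation, 4 of 26 genes were higher (15.4%, against 13.7% of all annotated protein-coding genes) and 1 lower (3.85%, against 4.86%). These shares are near those of all genes, and the 4 include AGO4, which was chosen because it was listed. Besides AGO4, IDN2, a protein that binds RNA and acts with the scaffold transcripts, rose by a log2 value of 1.37 (the authors' deposited table, adjusted p = 4.64e-15). IDN2 had implied means of 1114 normalized counts in dme and 430.1 in WT by the authors' deposited table. Of the 4 CLASSY genes, which bring RNA polymerase IV to chromatin, CLSY3 rose by 1.60 and CLSY4 by 1.15, while CLSY2 fell, at -1.29 (log2 values of the authors' deposited table), and CLSY1 was not listed. The means implied by the authors' deposited table were low: 81.3 normalized counts in dme and 26.8 in WT for CLSY3, 46.0 in dme and 20.7 in WT for CLSY4, and 58.7 in dme and 143.9 in WT for CLSY2. The adjusted p of CLSY4, 0.0450, was close to the limit of the authors' deposited table. DRM2, the methyltransferase of this pathway, was not listed, nor were the polymerase genes NRPD1 and NRPE1, nor RDR2 and DCL3, which make the small RNAs. AGO6 and AGO9, relatives of AGO4, and the 7 other ARGONAUTE genes (0 listed) were not listed either.

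**Figure D4:**
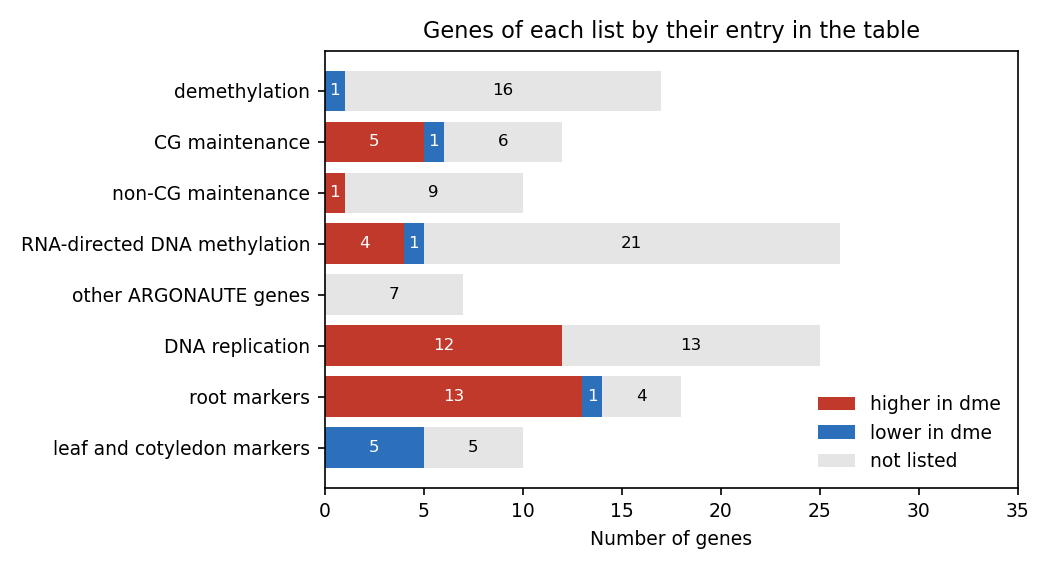
Number of genes (x axis) of each list (y axis) that the authors' deposited table gives as higher in dme (red), lower in dme (blue) or not at all (grey). CG maintenance has 5 higher, 1 lower and 6 unlisted genes, DNA replication 12 higher and 0 lower, and demethylation a single entry, DME.

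Genes of DNA replication and markers of seedling organs moved in the same libraries, and their part in the rises of MET1, VIM1, DDM1, CMT3 and AGO4 was not tested. The lists of these genes and markers were chosen with earlier results of these data known, so their shares are a description. MET1 and VIM1 act where DNA has just been copied. Of 25 replication genes, 12 were higher and 0 lower (48.0% higher, against 13.7% of all annotated protein-coding genes), with log2 fold changes between 1.02 and 1.75 and a median of 1.29 in the authors' deposited table. They were PCNA1 and PCNA2, which clamp the polymerase to DNA, the helicase genes MCM4, MCM5 and MCM7, the nucleotide synthesis gene TSO2, the chromatin gene TSK, and 5 histone H3.1 genes, of which HTR1 and HTR2 share 1 set of values under the same name and count as 1 measurement. Their means implied by the authors' deposited table summed to 6983 normalized counts in dme and 2627 in WT; each listed gene is at least 2-fold changed by the limit of the table, and the 13 unlisted genes are left out of these sums. MCM2, MCM3 and MCM6, the other helicase subunits, were not listed. Of the 25 replication genes, 9 held an E2F word (36.0%) and 13 a site II word (52.0%) in the same window, beside 0 and 2 of the 6 members. These words did not mark the higher genes. Of those with an E2F word only MCM4 and MCM5 were listed as higher, and the rest were unlisted. Of those with a site II word only HTR2, MCM4, MCM5, PCNA2 and TSK were listed as higher, and the rest were unlisted.

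Of 18 root markers, 13 were higher (72.2%, against 13.7% of all annotated protein-coding genes) and 1 lower. This list and that of leaf and cotyledon markers were chosen with earlier results of these data known, so their shares are a description. The implied means of the listed root markers summed to 14389 normalized counts in dme and 1120 in WT, with the unlisted ones left out. The largest parts of the sum in dme were SULTR1;2 with 5830, FRO2 with 2173 and IRT1 with 2121 normalized counts. In WT these 3 had 240, 56.4 and 22.0. The sums thus rest mainly on these 3 genes. The 1 lower root marker was TIP2;3, at a log2 value of -1.01, with implied means of 163 normalized counts in dme and 329 in WT. CASP5, SCR, SHR and EXPA7 were not listed. Of 10 leaf and cotyledon markers 0 were higher and 5 lower (50%, against 4.86% of all). The implied means of those 5 summed to 63898 normalized counts in dme and 147036 in WT. They were GLK1, GLK2, LHCB1.1, LHCB2.1 and LHCB2.2. LHCB1.2 was not listed, nor were the RBCS genes of the list, RBCS1A, RBCS1B, RBCS2B and RBCS3B. None of the listed markers of either organ had the pattern of a genotype without reads.

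Of the 12 genes next to DME, MET1, VIM1, DDM1, CMT3 and AGO4 in the order of annotated starts, 1 on each side, 2 were listed (16.7%). This share is near the 18.6% of all annotated protein-coding genes, although the 12 include a pseudogene beside VIM1 and a tRNA gene beside DDM1. AT5G66740, which ends 165 bases before DDM1 on the same strand, has a log2 value of -1.46 in the authors' deposited table. Its mean there was low, 22.5 normalized counts, and its adjusted p of 0.0352 was close to the limit. AT1G69780, 5100 bases from CMT3 on the other strand, stood at -1.16 in the authors' deposited table. The neighbours of DME were not listed.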

How the data were processed

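RNA of whole seedlings (RNeasy plant kit) went into libraries made at BGI, per the labels' protocols. Named in the submitters' processing notes are the build TAIR10, HISAT2 2.1.0, StringTie 2.1.3 and Trimmomatic 0.36; the sources used here do not say how reads were counted, whether strand was used or which differential test was run. The authors deposited, per the file headers, a mean normalized count (a signal whose scaling is not stated), a log2 fold change, its linear fold and an adjusted p-value, for genes past 2-fold and 0.05 only. Depth is unknown, and the fits that need values per library were not run.

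The 6 genes, the lists and the motifs were chosen with earlier results of these data known, so no test of them was made. Genes named are the 6 and the listed members of the lists, matched by locus code (5292 of 5322 codes matched the annotation); AT5G66740, AT1G69780 and the genes of the closing section were named after their values were seen. Of the rows, 11 repeat another under a second locus code and were counted once in counts over the table. Implied means solve the mean over 3 and 3 libraries and the fold. A fold that is a fixed function of the mean, found in 290 genes, was read as no reads in 1 genotype. The largest standard error is the size of the log2 fold change divided by the two-sided normal quantile of the adjusted p. Positions and sequences come from RefSeq TAIR10.1, whose nuclear chromosomes carry the sequence of TAIR10. Tools were pandas 2.3.3, numpy 2.4.6, matplotlib 3.10.9 and scipy 1.17.1 under Python 3.11.15. Of the steps, only the implied means, the largest standard error and the motif search were tried on simulated data. The simulated p-values came from the same normal model that the largest standard error assumes. Alternatives were an adjusted p under 0.01, 4-fold, a mean of at least 50, and a shift of every log2 fold change by 0.5 or -0.5.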

Additional observations from a re-analysis of the deposited data

How the results depend on the processing

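The members and the 4 DNA methylation lists gave 5 higher and 1 lower member and 10 higher and 3 lower list genes, and these counts stayed within 1.5 times with an adjusted p under 0.01, with means of at least 50 normalized counts and with all log2 fold changes shifted by 0.5. Of the list genes, CLSY4 was lost at an adjusted p under 0.01, CLSY4 and VIM5 at a mean of at least 50, and CLSY2 with the shift of 0.5. No member was lost under these settings, which was fixed in advance by their values. Their adjusted p was at most 0.000217 and their mean at least 206.7 normalized counts. A shift of 0.5 moves higher genes away from the limit, and unlisted genes have no value with which to enter, so the counts of higher genes could not change under it. At 4-fold they came to 1 higher member (CMT3), 0 lower members, 1 higher list gene (CMT3) and 1 lower list gene (VIM5), fewer by construction; as VIM5 has no fold of known size, that last count rests on its fitted value. With a shift of -0.5, which stands for another scaling of the libraries to each other, 2 members (CMT3 and VIM1) and 4 list genes (these and VIM6 and CLSY3) remained higher, and the log2 values of the authors' deposited table moved to 0.54 for MET1, 0.62 for DDM1 and 0.60 for AGO4, below the limit of the table. No direction of a member was turned by either shift. This was fixed in advance, because both shifts are smaller than the 2-fold limit of the table. Whether any such shift applies cannot be seen from this table. No paired analysis was possible because the table holds no values per library, and leaving out each replicate was not run for the same reason.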

Other observations

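The annotation text in the authors' deposited table calls 6 listed genes DNA glycosylases, 3 higher and 3 lower in dme; this group was formed after the values were seen. Besides DME, the lower genes were NTH2, an endonuclease III homologue of base excision repair, at a log2 fold change of -1.55 (adjusted p = 8.78e-17), and AT5G44680, at -1.70 (adjusted p = 2.92e-24), in the authors' deposited table. AT5G44680 had implied means of 1344 normalized counts in dme and 4362 in WT by the authors' deposited table, above those of DME. The higher genes were AT5G57970 at 1.38, AT1G13635 at 1.98 and AT3G47830 at 2.13 (log2 values of the authors' deposited table), with implied means in dme of 206.8, 93.5 and 27.0 normalized counts, against 79.3, 23.7 and 6.17 in WT.

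Further silencing genes outside the lists were also listed and were named after their values were seen. NRPD4, a shared subunit of RNA polymerases IV and V, was lower (adjusted p = 0.0333 in the authors' deposited table) at a mean of 4.96 normalized counts, and had the pattern of no reads in dme. SGS3, which acts in making small RNAs with RDR6, had a log2 value of -1.12 there, with an adjusted p of 7.59e-05 from the authors' deposited table. ATXR6, a histone H3 lysine 27 methyltransferase that acts during replication, stood at 1.72 there, with an adjusted p of 0.0113.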
